A study of Homo sapiens with 12 samples.

Results

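SMO, SUFU, GAS1 and RAB23 are 4 genes that pass on or restrain the Hedgehog signal between the cell surface and the GLI transcription factors. They were taken from the 199 genes of the NanoString nCounter Dx Stem Cell Panel by name, not by their values, with the identifiers SMO NM_005631.3, SUFU NM_016169.2, GAS1 NM_002048.2 and RAB23 NM_183227.1. LX-2, an immortalised human line of activated hepatic stellate cells (HSCs), was transfected with 10 pmol/ml of a miR-25 mimic or of a control mimic with a C. elegans sequence, and RNA was taken at 24 h or 48 h. The question was how added miR-25 changed the mRNA of signaling genes in HSCs. Each time point had 3 replicates, and since the control and the miR-25 sample of a replicate shared a transfection efficiency, the 12 samples formed 6 pairs. All samples came from 1 cell line and all carried a mimic, so no untransfected cells were compared. The transfection efficiency was 0.59, 0.75 and 0.81 in replicates 1 to 3 at 24 h and 0.42, 0.61 and 0.65 at 48 h, as a share of the cells. Relative to the control sample of the pair, miR-25 was listed at 62.34, 192.53 and 350.13 at 24 h and at 347.45, 482.36 and 681.22 at 48 h.

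In the Hedgehog pathway the receptor Patched holds SMO inactive until a Hedgehog ligand binds it, and GAS1 at the cell surface helps to present that ligand. Active SMO frees the GLI transcription factors from SUFU, which otherwise holds them in the cytoplasm and favours their repressor forms, while RAB23, a small GTPase linked to the primary cilium, dampens the pathway. In the liver, Hedgehog signaling is known to accompany the activation of HSCs to myofibroblasts during injury and fibrosis.

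A pair of sequences lies behind the measurements. The first is the mature miR-25-3p, shown because its seed, bases 2 to 8 and in capitals here, sets which transcripts a miRNA can bind. It lies at chr7:100093571-100093592 on the minus strand of GRCh38.p14 (RefSeq).
miR-25-3p: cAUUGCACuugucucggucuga
The second is the stretch of the SMO transcript to which its nCounter probes were designed, shown 5′ to 3′ because the clearest result below was read from it.
SMO: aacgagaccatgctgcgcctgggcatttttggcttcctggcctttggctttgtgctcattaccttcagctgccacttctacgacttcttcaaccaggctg
The seed-matching letters GTGCAAT were found on the transcript strand in 0 of the 193 windows of 100 bases that the panel gives, the windows of the 4 genes included, which says nothing of the rest of these transcripts. The windows of SMO, SUFU, GAS1 and RAB23 had a GC content of 53%, 54%, 54% and 45%, within the 37% to 65% of all windows (median 51%).

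NanoString counting needs no amplification: a capture probe and a barcoded reporter probe bind the same transcript, and a count is a number of barcodes. The total over the genes was 321243 to 409581 at 24 h and 107377 to 200821 at 48 h, and the sum of the 6 positive control probes was 76248 to 87475 and 51306 to 59004. Counting error was therefore larger at 48 h. Time point, depth and transfection cannot be told apart between the 24 h and the 48 h samples. The pair of 48 h replicate 1 stood apart from the other samples: the scaled count of the chemokine CXCL12 was 889 and 551 there and 7890 to 9528 in all others, so results are given with and without it where it moved them. Of 6 stellate or mesenchymal genes (COL1A1, CDH2, CXCL12, FGF2, FGFR1 and CD44), 6 were above background in all 12 samples. Of 17 genes of other cell types, 1 (POU5F1) was above background in all samples, 9 in some and 7 in none. The summed count of these 17 genes was 161 to 222 at 24 h and 59 to 113 at 48 h, and scaled to the mean total it was 118 to 160.1 at 24 h and 131 to 209 at 48 h. Since RNA came from whole cultures, fewer cells that express a gene and less RNA per cell cannot be told apart.

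All 4 transducers were detected in LX-2 cells, SMO and RAB23 clearly and SUFU and GAS1 not far above the negative probes. The 8 negative control probes of a sample set its background, and a count above their mean plus 2 SD was taken as above it, a limit of 10.2 to 16.5 counts at 24 h and 5.52 to 8.40 counts at 48 h. By this rule SMO, SUFU, GAS1 and RAB23 were each above background in 12 of 12 samples, and all were also above the highest negative probe of each sample. Counts of different probes are not compared here, since probes differ in how well they bind.

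SMO, the membrane protein through which the signal enters the cell, had raw counts of 154, 139 and 136 in the control samples and 162, 150 and 160 in the miR-25 samples of replicates 1 to 3 at 24 h. At 48 h the SMO counts were 75, 103 and 122 in the control and 117, 109 and 114 in the miR-25 samples. Its count was 23.1 to 43.6 times the mean of the negative probes.

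RAB23 had counts of 75, 62 and 74 in control and 98, 87 and 68 in miR-25 samples at 24 h. At 48 h the RAB23 counts were 28, 28 and 53 in control and 22, 26 and 54 in miR-25 samples, so that at this time replicate 3 was the highest in both treatments. Relative to the negative probe mean, RAB23 reached 12.4 to 20.1 times at 24 h and 5.87 to 15.4 times at 48 h.

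GAS1, the ligand-binding surface protein, had counts of 19, 21 and 25 in control and 27, 35 and 30 in miR-25 samples at 24 h. At 48 h the GAS1 counts were 20, 25 and 19 in control and 21, 25 and 18 in miR-25 samples, hence the same range of 19 to 25 in the controls of both time points although the total was lower at 48 h. The GAS1 count was 3.30 to 7.37 times the negative probe mean at 24 h and 5.14 to 10.0 times at 48 h.

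SUFU, the GLI-binding inhibitor, had counts of 19, 27 and 22 in control and 32, 33 and 23 in miR-25 samples at 24 h. At 48 h the SUFU counts were 8, 11 and 22 in control and 8, 12 and 18 in miR-25 samples. The 2 lowest values were closest to the limit: in 48 h replicate 1 the count of 8 in both samples stood against limits of 7.36 in the control and 7.86 in the miR-25 sample, and its exact Poisson 95% interval of 3.45 to 15.8, which covers counting error only, included both limits. With the mean plus 3 SD as the limit, SUFU was above background in 10 of 12 samples.

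**Figure D1:**
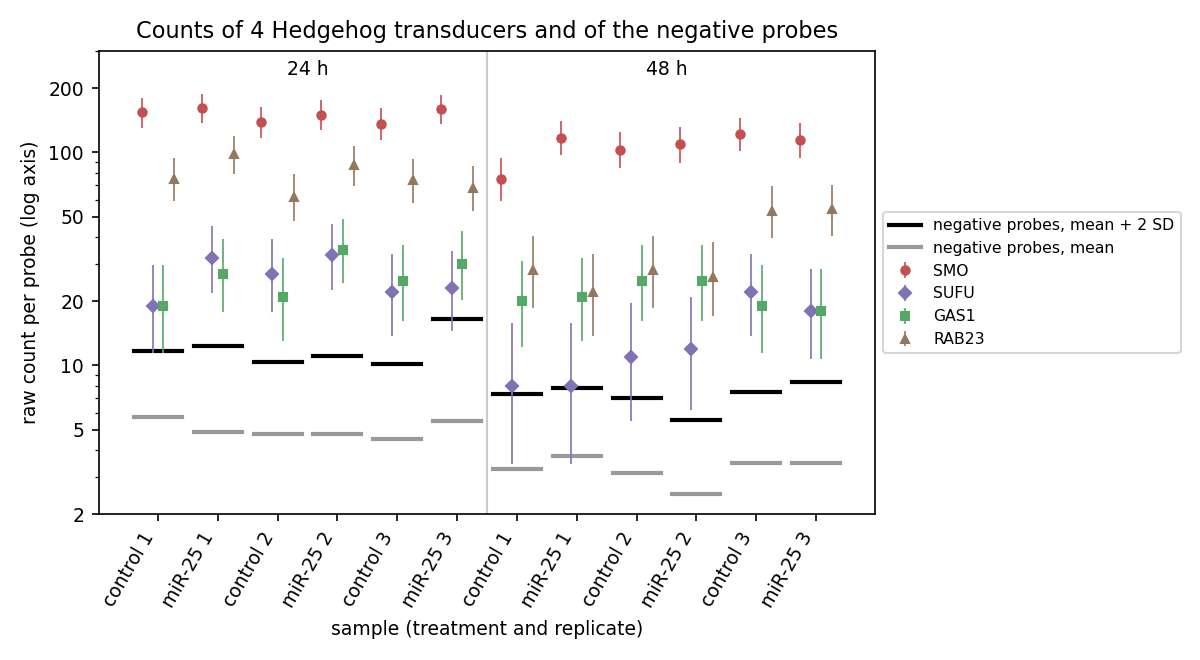
Raw counts of SMO, SUFU, GAS1 and RAB23 (points, with exact Poisson 95% intervals) in each sample on a log axis, beside the mean (grey) and the mean plus 2 SD (black) of the 8 negative probes of that sample. SMO lay at 75 to 162 counts in all samples, while SUFU in 48 h replicate 1, at 8 counts, lay just above the black line.

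Among the 23 other Hedgehog genes of the panel, 15 were above background in all 12 samples, 3 in some and 5 in none. The ligands SHH, IHH and DHH were above background in 0 of 12 samples each, with counts of 1 to 6, 1 to 7 and 1 to 7, which does not show that they are absent. Of the ligand-binding proteins, the decoy receptor HHIP was above background in 1 sample and the endocytic receptor LRP2 in 4 samples. The transcription factors GLI1, GLI2 and GLI3 were above background in 12 of 12 samples each, with counts of 14 to 85, 230 to 723 and 95 to 336. STK36, a kinase of the Fused family, had counts of 54 to 202.

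SMO and GAS1 made up a larger part of the panel's counts at 48 h than at 24 h in control samples, and SMO also in miR-25 samples. The scaled counts used below are counts as a share of the sample's total, multiplied by the mean total of 265105. In control samples the scaled SMO counts were 101, 108 and 112 at the earlier and 185, 194 and 176 at the later time point. In miR-25 samples SMO was at 105, 102 and 115 at 24 h and at 199.7, 182 and 150.5 at 48 h. In both treatments every 48 h sample was above every 24 h sample. An exact permutation test of such a separation of 3 against 3 samples gives p = 0.1, the smallest it can give. How many of the 136 genes tested separated in this way was not counted, so it is not known whether this sets SMO apart. GLI2 did so too in miR-25 samples, and without 48 h replicate 1 so did GLI1 and STK36 in both treatments.

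The SMO mean rose 1.73-fold in control samples, from 107 ± 5.67 to 185 ± 8.77 (SD, n = 3 each), with a log2 fold change of 0.79 ± 0.126 (SE) and an adjusted p of 0.00290 (edgeR, quasi-likelihood). In miR-25 samples SMO rose 1.65-fold, from 107 ± 7.01 to 177 ± 24.9 (SD, n = 3 each), with a log2 fold change of 0.72 ± 0.124 (SE) and an adjusted p of 0.00439 (edgeR). SMO had the second smallest p of the 136 genes tested in control samples and the third smallest in miR-25 samples. The p-values between time points come from a fit that did not take the pairs into account, so they may be too small. A limma fit with the pair as a random block kept both SMO calls. Both were lost when each treatment was fitted alone with the replicate number, shared by 24 h and 48 h, as a block. Without 48 h replicate 1 the log2 fold changes of SMO were 0.79 and 0.62, with adjusted p of 0.000609 and 0.00286 (edgeR), while without 24 h replicate 2 the adjusted p in miR-25 samples was 0.0586. Of the 136 genes, 3.68% were called higher and 3.68% lower at 48 h in control samples, that is 5 genes each way. In miR-25 samples 6.62% were called higher and 5.88% lower. Without 48 h replicate 1, 63 genes were called in control samples and 63 in miR-25 samples.

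GAS1 was at scaled counts of 12.5, 16.2 and 20.6 at 24 h and 49.4, 47.1 and 27.5 at 48 h in control samples. These groups did not overlap, which was again not counted over the other genes. In miR-25 samples GAS1 was at 17.5, 23.8 and 21.6 at 24 h and at 35.8, 41.7 and 23.8 at 48 h, and the lowest 48 h sample, replicate 3, lay just below the highest 24 h sample. The mean of GAS1 in control samples rose from 16.4 ± 4.09 to 41.3 ± 12.03 (SD, n = 3 each), a log2 fold change of 1.30 ± 0.316 (SE) with an adjusted p of 0.0293 (edgeR). The GAS1 counts behind this call were 19 to 25 per sample. The call was lost when 24 h replicate 1, 2 or 3 or 48 h replicate 2 was left out (adjusted p of 0.104, 0.141, 0.0656 and 0.121, edgeR). It was also lost when control samples were fitted alone (0.0771), and with the replicate number as a block. The limma fit with the pair as a random block kept it. In miR-25 samples GAS1 had a mean of 21.0 ± 3.23 at 24 h and 33.8 ± 9.14 at 48 h (SD, n = 3 each), with a log2 fold change of 0.67 ± 0.304 (SE) that did not pass (adjusted p = 0.143, edgeR). That GAS1 passed in one treatment and not in the other was no shown difference, since the difference itself, given below, did not pass.

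The negative probes, put on the same scale, had means of 3.16 to 3.97 at 24 h and 4.17 to 8.02 at 48 h, so background took part in the scaled counts of the low genes. With the negative mean of each sample subtracted, the GAS1 means of the controls were 12.7 ± 4.12 and 35.04 ± 10.9 at the earlier and later time point, and those of SMO 103 ± 5.69 and 179 ± 8.52 (SD, n = 3 each). On these values limma gave an adjusted p of 0.0492 for GAS1 and 0.00306 for SMO.

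RAB23 and SUFU showed no difference between the time points beyond their spread. Control samples had RAB23 at scaled counts of 49.2, 48.0 and 61.1 at 24 h against 69.1, 52.7 and 76.7 at 48 h (log2 fold change 0.34 ± 0.248 (SE), adjusted p = 0.332, edgeR). In miR-25 samples RAB23 was at 63.4, 59.3 and 49.1 at 24 h and at 37.5, 43.3 and 71.3 at 48 h (log2 fold change -0.16 ± 0.246 (SE), adjusted p = 0.664, edgeR), and without 48 h replicate 1 the sign turned (0.03). The groups overlapped in both treatments.

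SUFU had a mean of 19.6 counts and so missed the minimum mean of 20 counts for the test, and its values come from the same fit over all 199 genes. In control samples SUFU was at scaled counts of 12.5, 20.9 and 18.2 at 24 h and 19.8, 20.7 and 31.8 at 48 h, with a log2 fold change of 0.53 ± 0.304 (SE) and an adjusted p of 0.299 (edgeR). In miR-25 samples it was at 20.7, 22.5 and 16.6 at 24 h and at 13.7, 20.004 and 23.8 at 48 h, with a log2 fold change of -0.04 ± 0.365 (SE) and an adjusted p of 0.955 (edgeR). The groups of SUFU overlapped in both treatments.

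**Figure D2:**
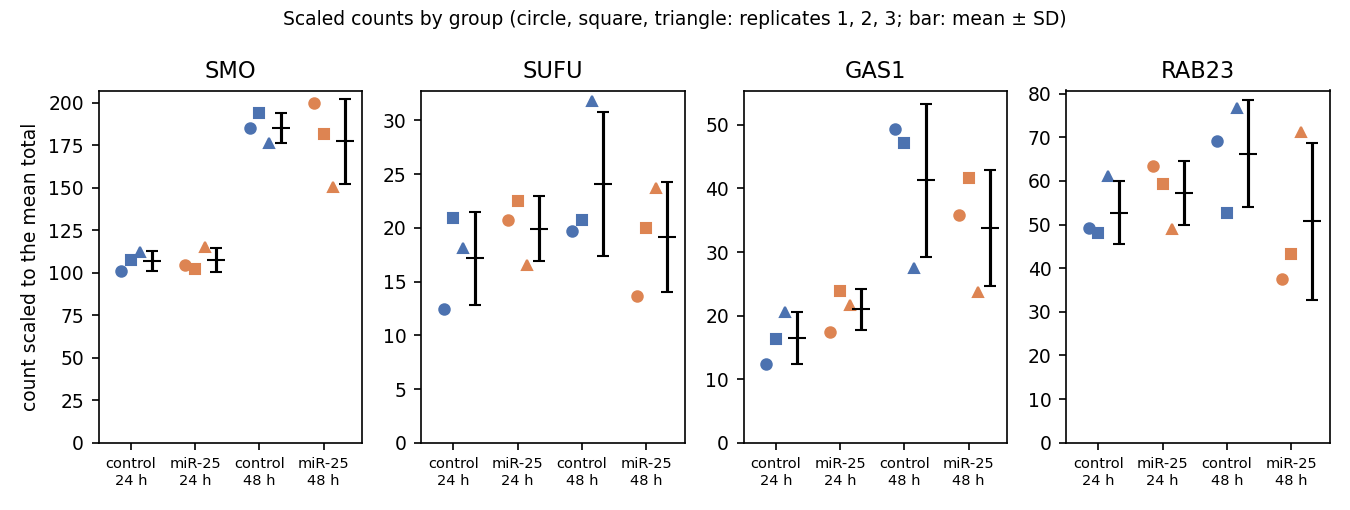
Counts scaled to the mean total in control (blue) and miR-25 (orange) samples at 24 h and 48 h, 1 panel per gene with its own axis from 0. Points are samples and bars the mean ± SD (n = 3), and the 48 h samples of SMO, at 150.5 to 199.7, all lie above its 24 h samples, at 101 to 115.

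The size of these differences and whether they passed depended on what the counts were scaled to, as did the sign for RAB23 in control samples and for SUFU in both treatments. With counts scaled to the 6 positive control probes, which follow hybridisation and counting but not the amount of RNA, the median of the 136 genes itself moved by -0.64 (log2) between 24 h and 48 h in control samples and by -0.46 in miR-25 samples, against 0.13 and 0.09 with the total. On that scale SMO stood at 0.02 in control samples and 0.13 in miR-25 samples, GAS1 at 0.50 and 0.09, RAB23 at -0.41 and -0.69 and SUFU at -0.18 and -0.59, and none passed (adjusted p of 0.158 to 0.925, edgeR). The calls then split into 0 higher and 63 lower in control samples and 0 higher and 17 lower in miR-25 samples, against 5 and 5 and 9 and 8 with the total. Scaling to the total without GAPDH gave 17 and 6 in control and 20 and 6 in miR-25 samples.

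A scaling moves all genes of a sample alike, so the distance of a gene from the median gene is nearly fixed by construction and is given only as a description. On the log2 scale SMO lay 0.65 to 0.66 above the median gene in control samples and 0.59 to 0.63 above it in miR-25 samples. GAS1 was 1.14 to 1.17 above the median gene in control and 0.55 to 0.58 in miR-25 samples. RAB23 lay 0.20 to 0.23 above the median gene in control samples, and in miR-25 samples its distance was -0.25 to -0.22. Against the positive probes, SMO thus differed by 0.02 and 0.13 between the time points, while the median gene was lower at 48 h.

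**Figure D3:**
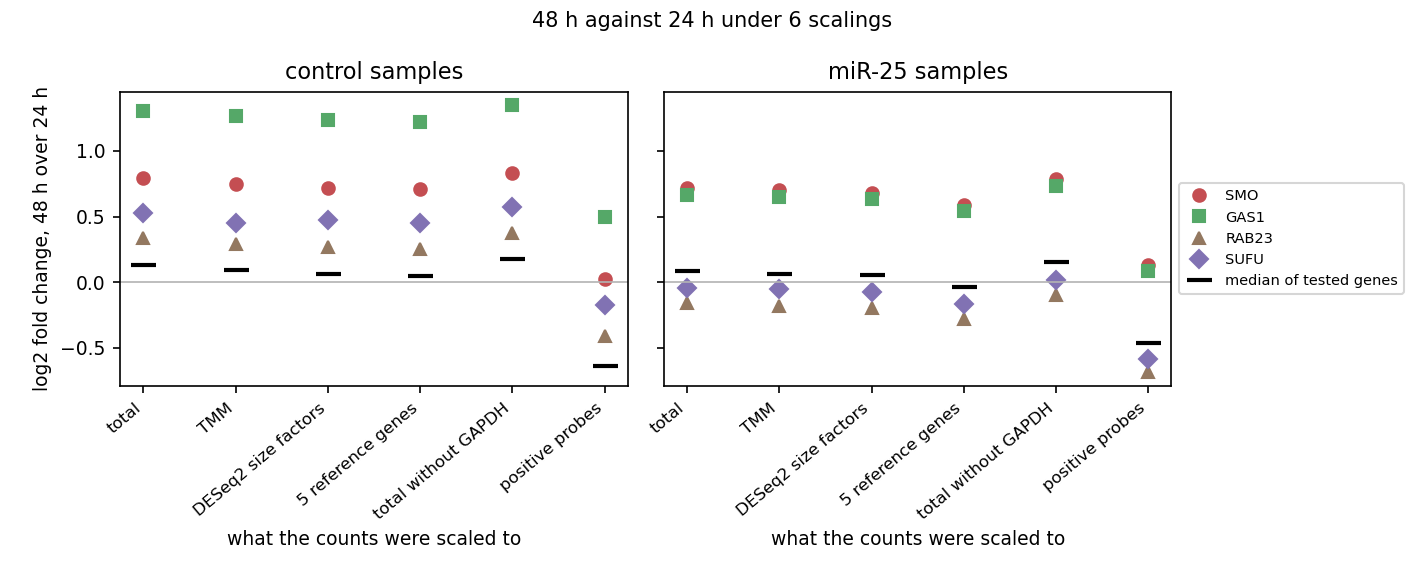
Log2 fold change of 48 h over 24 h for the 4 transducers and the median of the 136 tested genes (black bars) under 6 scalings, in control samples (left) and miR-25 samples (right). In control samples SMO was at 0.79 with the total and at 0.02 with the positive probes, and the black bar moved with it from 0.13 to -0.64, since a scaling shifts all genes alike.

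Of the 23 other Hedgehog genes, 16 had enough counts to be tested. With all 12 samples, 0 of these were called higher and 0 lower at 48 h by edgeR, in control and in miR-25 samples alike. Over all 136 genes tested, 3.68% were called higher and 3.68% lower in control samples, and 6.62% and 5.88% in miR-25 samples. At such shares few of 16 genes would be called, so this count does not set them apart. Their median log2 fold change was 0.18 in control and 0.16 in miR-25 samples, beside 0.13 and 0.09 over all genes tested. GLI1, a target gene as well as an effector of the pathway, had a log2 fold change of 0.51 ± 0.423 (SE) in control and 0.54 ± 0.406 (SE) in miR-25 samples. GLI2, the main activator, had 0.30 ± 0.122 (SE) and 0.34 ± 0.121 (SE), and GLI3, the main repressor, 0.07 ± 0.133 (SE) and 0.09 ± 0.131 (SE). STK36 had 0.18 ± 0.126 (SE) and 0.07 ± 0.124 (SE). The scaled count of GLI1 at 48 h was 34.6 and 27.3 in replicate 1 and 65.9 to 95.05 in the others, with the lowest values in the pair that stood apart. Without that pair, the mean log2 scaled count of GLI1 rose by 0.76 in control and 0.93 in miR-25 samples, against 0.38 and 0.35 with it. GLI2 rose by 0.27 and 0.29 (0.30 and 0.34 with it) and GLI3 by 0.05 and 0.14 (0.08 and 0.08). STK36 rose by 0.25 and 0.12 (0.18 and 0.06). Without that pair 63 of the 136 genes were called in each treatment, and how many of the 16 were among them was not counted.

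**Figure D4:**
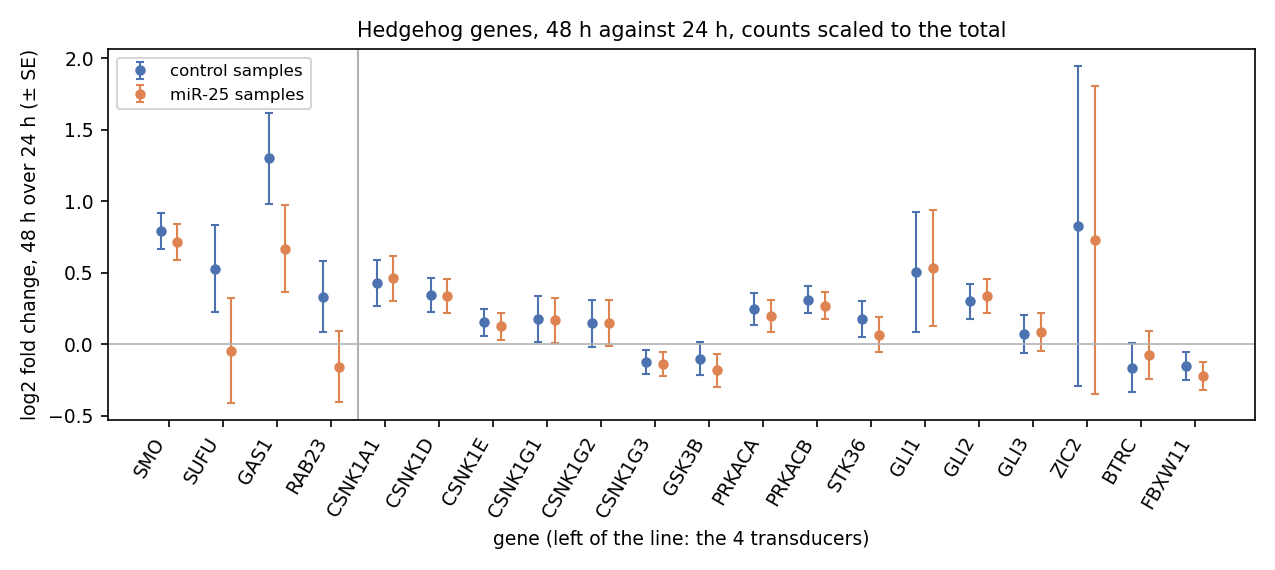
Log2 fold change of 48 h over 24 h (points, ± SE, counts scaled to the total) for the 4 transducers, left of the line, and the 16 other Hedgehog genes tested, in control (blue) and miR-25 (orange) samples. SMO, at 0.79 and 0.72, and GAS1 in control samples, at 1.30, passed the test.

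No difference between miR-25 and control samples passed the test for any of the 4 genes, at either time point. The ratio of the scaled counts was taken within each pair. For SMO the ratios of miR-25 to control in replicates 1 to 3 were 1.04, 0.95 and 1.03 at 24 h, then 1.08, 0.937 and 0.853 at 48 h. They lay on both sides of 1, with a mean of 1.006 ± 0.0485 at 24 h and 0.956 ± 0.114 at 48 h (SD, n = 3 pairs each).

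SUFU had ratios of 1.66, 1.08 and 0.914 in the 24 h pairs, followed by 0.691, 0.965 and 0.747 in the 48 h pairs. The RAB23 ratios were 1.29, 1.24 and 0.803 in the 24 h pairs, followed by 0.543, 0.822 and 0.930 in the 48 h pairs. Both genes thus had 2 of 3 pairs above 1 at 24 h and 3 of 3 below 1 at 48 h, with means of 1.22 ± 0.394 and 0.801 ± 0.145 for SUFU and 1.11 ± 0.267 and 0.765 ± 0.200 for RAB23 (SD, n = 3 pairs each).

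GAS1 had ratios of 1.40, 1.47 and 1.05 at 24 h, all above 1, and of 0.726, 0.885 and 0.865 at 48 h, all below 1. The mean ratio of GAS1 was 1.31 ± 0.225 at 24 h and 0.825 ± 0.0866 at 48 h (SD, n = 3 pairs each). Of the 136 genes tested, none had a larger log2 fold change at 24 h than GAS1, whose mean of 23.8 counts was close to the minimum of 20 for the test.

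**Figure D5:**
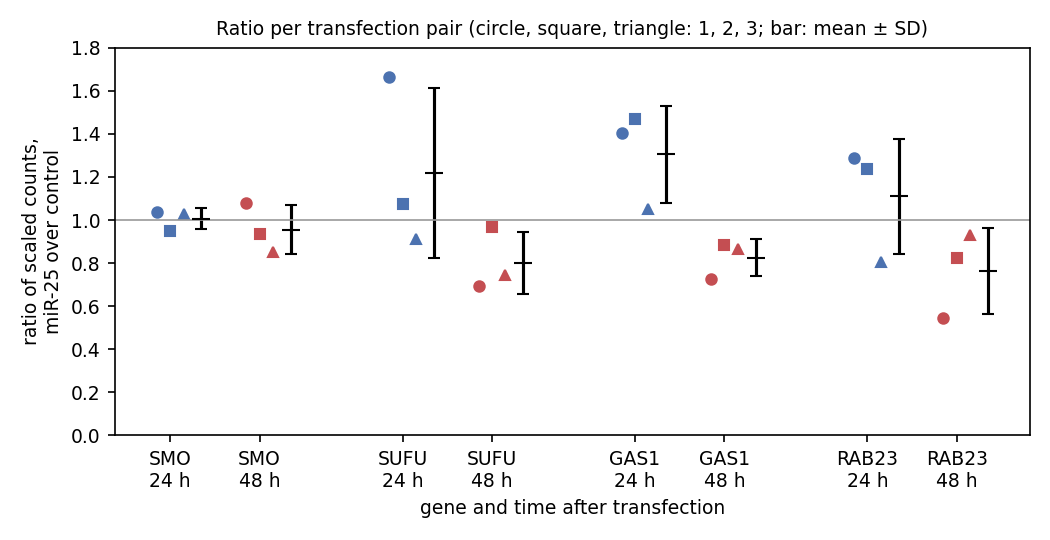
Ratio of the scaled counts of miR-25 to control in each pair (points) at 24 h (blue) and 48 h (red), with the mean ± SD over 3 pairs. The ratios of SMO stayed between 0.853 and 1.08, while the pairs of SUFU ranged from 0.691 to 1.66.

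In the edgeR fit with the pair as a block, the miR-25 effect at 24 h was a log2 fold change of 0.36 ± 0.231 (SE) for GAS1, 0.13 ± 0.150 (SE) for RAB23, 0.24 ± 0.230 (SE) for SUFU and 0.0085 ± 0.0937 (SE) for SMO, with adjusted p of 0.778, 0.868, 0.964 and 0.973. At 48 h it was -0.28 ± 0.255 (SE) for GAS1, -0.34 ± 0.217 (SE) for RAB23, -0.33 ± 0.323 (SE) for SUFU and -0.08 ± 0.113 (SE) for SMO, with adjusted p of 0.635, 0.540, 0.761 and 0.734. Over all genes tested, 0% were called at 24 h and 0.735% at 48 h, the latter being 1 gene, the growth factor gene FGF1, named because it was the only call. With an unadjusted p under 0.05 in edgeR there were 9 genes at 24 h and 17 at 48 h. After adjustment DESeq2 and limma also called 0 at 24 h, and 1 each at 48 h. Their genes with an unadjusted p under 0.05 at 48 h numbered 13 and 23. SMO and GAS1 changed sign at 48 h with the positive probes as the scale (0.20 and 0.02), where the median of all genes moved by 0.27 and 51 genes were called, all higher.

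Over both time points together the effect was 0.04 ± 0.170 (SE) for GAS1, -0.04 ± 0.0738 (SE) for SMO, -0.05 ± 0.199 (SE) for SUFU and -0.10 ± 0.132 (SE) for RAB23, and 0% of genes were called by edgeR, DESeq2 or limma (26, 15 and 26 genes had an unadjusted p under 0.05). An exact sign-flip permutation test over the 6 pairs (two-sided, smallest possible p 0.03125, 4 tests) gave a p of 0.594 for SMO, 0.844 for SUFU, 0.844 for GAS1 and 0.469 for RAB23, and 0.844 for each after Benjamini-Hochberg adjustment. At 1 time point such a test over 3 pairs cannot go below 0.25.

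The miR-25 effect at 48 h minus that at 24 h was -0.64 ± 0.344 (SE) for GAS1, -0.57 ± 0.397 (SE) for SUFU, -0.47 ± 0.263 (SE) for RAB23 and -0.09 ± 0.147 (SE) for SMO on the log2 scale, with adjusted p of 0.631, 0.884, 0.715 and 0.902 in edgeR. Of all genes 0% were called for this difference by edgeR (8 with an unadjusted p under 0.05), 0 by limma and 1 by DESeq2. The same difference is that between the 48 h to 24 h changes of the 2 treatments, so neither SMO nor GAS1 was shown to change differently with time in miR-25 and control samples.

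Among the other Hedgehog genes 0 of 16 were called for miR-25 in any of these comparisons, where 0% to 0.735% of all genes tested were called. Their median log2 fold changes were 0.06 at 24 h and 0.05 at 48 h, beside 0.03 and -0.01 over all genes. GLI2 had ratios of 1.02 to 1.15 at 24 h and 1.03 to 1.18 at 48 h, above 1 in 6 of 6 pairs, and a log2 fold change of 0.13 ± 0.0453 (SE) over both time points with an adjusted p of 0.193 (edgeR). For GLI1, GLI3 and STK36 the ratios over the 6 pairs were 0.790 to 1.59, 0.939 to 1.26 and 0.885 to 1.11.

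Over the 12 samples, the log2 scaled counts of SMO and GAS1 went together (Pearson r = 0.89) and so did those of SUFU and RAB23 (r = 0.71), whereas the other pairs of the 4 genes had r between -0.06 and 0.21. These are descriptions, since the samples share time point and depth and the low counts share background. The genes most like SMO were FURIN (r = 0.97), FZD5 (0.95) and CIR1 (0.93), against a median r of 0.18 over all genes. GAS1 was most like SMO (0.89), PRKACB (0.87) and FZD3 (0.87). For SUFU the closest were ADAM17 (0.73), RFNG (0.72) and RAB23 (0.71), and for RAB23 they were ADAM17 (0.59), FZD8 (0.57) and NCSTN (0.50). Without 48 h replicate 1 the order among these genes changed for GAS1, SUFU and RAB23. Then r with GAS1 was 0.92 for FZD3, 0.87 for SMO and 0.85 for PRKACB, and r with SUFU was 0.73 for RFNG, 0.66 for RAB23 and 0.65 for ADAM17. The r of RAB23 with ADAM17, FZD8 and NCSTN was then 0.42, 0.44 and 0.38, while the order for SMO was as before, with 0.97 for FURIN, 0.93 for FZD5 and 0.90 for CIR1.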

How the data were processed

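Messenger RNA of 199 genes (nCounter Dx Stem Cell Panel) was counted in 12 samples of LX-2 cells, from 50 ng of RNA each. The authors deposited raw counts per probe (nSolver 3.0), before background correction or scaling; their later steps were not used. The counts come with no genome build. Names came from the panel sheet for 193 identifiers and from RefSeq for 6. Samples were grouped by their labels. Control and miR-25 samples of 1 replicate share a transfection efficiency and formed a block: their deviations from the group means correlated at 0.283 to 0.887. The replicates are of 1 cell line, so p-values measure only the spread between these samples, which may be technical in part.

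The 136 genes whose mean reached 20 counts were tested with edgeR 4.0.16 (R 4.3.3, quasi-likelihood, total over the genes as library size), adjusted by Benjamini-Hochberg at 0.05. The time comparison had no block: all 12 samples entered 1 fit as 4 groups. Both samples of a pair thus counted as independent for the spread although their deviations correlated, so its p-values may be too small. Where edgeR bounds p by counting error, SE follows that p. DESeq2 1.42.0, limma 3.58.1 (log2 of scaled counts plus a pseudocount of 1), other scalings, filters and left-out pairs were alternatives, and scaling to the positive probes was added after seeing the data. The fit was also run on simulated counts without correlated pairs or an outlying replicate, so that run does not test it under the conditions of these data. Ratios and exact tests used python 3.11.15 with numpy 2.4.6, pandas 2.3.3 and scipy 1.17.1, figures matplotlib 3.10.9. Totals of 107377 to 409581 counts set the precision.

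The 4 genes, the lists of Hedgehog genes and markers, the rule for named genes (the 4 genes, GLI1, GLI2, GLI3, STK36, the ligands and binders, any other listed gene that passed, and the 3 most alike genes by r) and the tests were chosen with earlier results of these data known. FGF1 was named after its values were seen.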

Additional observations from a re-analysis of the deposited data

Results flagged for a closer look

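The ratio of miR-25 to control for GAS1 was above 1 in all 3 pairs at 24 h and below 1 in all 3 pairs at 48 h, the only such reversal among the 8 genes looked at (the 4 transducers, GLI1, GLI2, GLI3 and STK36). How many of the 136 genes tested reversed in this way was not counted, so it is not known whether this sets GAS1 apart. The difference between the GAS1 effects at 48 h and 24 h was -0.64 on the log2 scale with an adjusted p of 0.631 in edgeR. An exact permutation test of the 3 against 3 log2 ratios of GAS1 gave p = 0.1, the smallest it can give. Any gene with such a reversal gives this p in that test, so it adds nothing to the pattern by which GAS1 was flagged. With the negative probes subtracted the ratios were 1.04 to 1.65 at 24 h and 0.711 to 0.909 at 48 h, and over the 15 alternatives the adjusted p ranged from 0.472 to 0.997. GAS1 had 18 to 35 counts per sample. The fitted effect at 48 h was -0.28 with the total, -0.29 with TMM scaling, -0.29 with DESeq2, -0.30 with 5 reference genes and -0.27 with the total without GAPDH, and 0.017 with the positive probes, while that at 24 h was 0.32 to 0.43 over these 6 scalings.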

How the results depend on the processing

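No miR-25 effect on a transducer passed under any of 248 alternative values (lowest adjusted p 0.243). None of the called time differences turned its sign, but each call was lost in places. SMO lost it under 2 of 18 alternatives in control and 3 of 18 in miR-25 samples, and GAS1 in control samples under 7 of 17. The lowest log2 fold change of SMO in control samples was 0.02, with the positive probes as the scale. The signs of uncalled effects turned in places. For SMO at 24 h the effect was -0.030 with DESeq2, -0.024 with TMM scaling and -0.0026 with the total without GAPDH. With the positive probes as the scale, the effect was 0.20 for SMO and 0.017 for GAS1 at 48 h, 0.14 for SMO, 0.10 for SUFU and 0.041 for RAB23 over both time points and 0.13 for SMO in the difference, and the change from 24 h to 48 h in control samples was -0.18 for SUFU and -0.41 for RAB23. For SUFU it was 0.020 in miR-25 samples with the total without GAPDH. With each pair left out in turn, the miR-25 effect was -0.016 to 0.048 for SMO and -0.00083 to 0.34 for RAB23 at 24 h, -0.17 to 0.00049 for SMO at 48 h, and over both time points -0.078 to 0.0045 for SMO, -0.16 to 0.028 for SUFU, -0.0090 to 0.12 for GAS1 and -0.22 to 0.00071 for RAB23, and the change from 24 h to 48 h in miR-25 samples was -0.24 to 0.14 for SUFU and -0.50 to 0.028 for RAB23.

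The number of genes called moved more. For miR-25 at 24 h it was 0, 3 in a fit of 24 h alone and 0 to 3 with a pair left out. At 48 h it was 1, 0 with 5 reference genes, 51 with the positive probes, 3 in a fit of 48 h alone, 3 with no filter and 0 to 2 with a pair left out. Without the pair as a replicate block it was 0 at 48 h. Over both time points it was 0, 2 with the total without GAPDH, 48 with the positive probes, 2 with no filter and 0 to 2 with a pair left out. For the difference it was 0, and 1 with DESeq2, TMM scaling, the total without GAPDH, the positive probes or no filter. From 24 h to 48 h it was 10 in control samples, 36 with DESeq2, 17 with TMM scaling, 23 with the total without GAPDH, 63 with the positive probes and 5 to 63 with a pair left out, and 17 in miR-25 samples, 42 with DESeq2, 26 with the total without GAPDH, 7 in a fit of 1 treatment alone and 4 to 63 with a pair left out. The 63 came without 48 h replicate 1 in both. With the replicate number shared by 24 h and 48 h as a block, these were 0 and 0. SMO then had adjusted p of 0.0614 and 0.104 and GAS1 in control samples 0.150 (edgeR), so none of the called time differences passed with this block. Samples with the same number correlated at -0.09 to 0.06 in their deviations. The labels give the same letters, A to C, to the replicates of both time points, numbered 1 to 3 here. They do not say whether samples with the same letter belong together, and this correlation cannot settle it. The cause of these moves was not tested. The counts limit SUFU and GAS1 most, with 8 to 35 counts per sample.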
